A study of Mus musculus with 12 samples.

Results

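The genes described here had mRNA that was well detected in 3 Ba/F3 clones expressing *RPL10 WT* and reduced to at most one eighth of that level in 3 clones expressing *RPL10 R98S*. They were chosen on these values: all 3 WT clones had at least 40 normalized mRNA counts (read counts divided by a library size factor), and the mean of the R98S clones was at most one eighth of the WT mean. Of the 41255 genes in the mRNA table, 9716 met the WT minimum and 56 also met the ratio. After leaving out 4 of these by their symbols (the S100, Zfp, Slc, Kif and Cd families), 52 genes remained. Because the mRNA contrast chose them, their mRNA differences are descriptions without a test. The word switched off was accurate for only some of them: 8 genes had a mean of at most 1% of WT and 28 at most 5%, whereas the others kept up to 11.9%, so they are called R98S-low genes below.

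Ba/F3 cells are lymphoid cells of the mouse whose growth depends on IL-3. All 6 clones had been transduced with a retroviral vector carrying human *RPL10*, either *WT* or with the R98S mutation, and all carried an shRNA against endogenous *Rpl10*, the WT clones included. Each clone grew from a single cell and gave 1 mRNA library and 1 ribosome footprinting library (RPF, stretches of mRNA left intact by RNase because a ribosome covered them) after 5 min in cycloheximide at 100 µg/ml. R98S clones are numbered 11, 13 and 35, and WT clones 28, 29 and 36. A clone is the unit of replication (n = 3 per genotype), and what a clone inherited from its founder cell is separated from its genotype only by the other clones. The material is bulk RNA, so fewer cells with a transcript and less of it per cell cannot be told apart.

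RPL10 is a protein of the large ribosomal subunit, and the R98S change is recurrent in T-cell leukemia. The mRNA level of a gene reflects how often its start is transcribed and how long the transcript lasts. Starts rich in CpG dinucleotides are often used in many cell types, whereas CpG-poor starts are more typical of genes used in few tissues, and several R98S-low genes are best known from such settings: smooth muscle, neurons, bone or blood vessels.

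Depth was 20576796 to 23136595 reads in 5 mRNA libraries and 6617457 in that of WT clone 28, in which 1 read equals 2.69 normalized counts. RPF depth ranged from 3477723 to 10883086 reads. The *Rpl10* row held 1449 to 2905 normalized mRNA counts in the R98S clones and 2230 to 4501 in the WT clones, without distinguishing mouse from human transcripts. Of the receptor chains for IL-3, *Csf2rb* ranged from 52827 to 64432 normalized mRNA counts in R98S clones and from 21027 to 48871 in WT clones. *Csf2rb2* ranged from 41694 to 53531 in R98S and from 19926 to 31276 in WT clones. For *Il3ra* the genotypes overlapped, with 560 to 859 in R98S and 719 to 1112 in WT clones. Only 3 of 16 pro-B cell markers reached a mean of 10 normalized counts. Over the 6 clones, *Cd79a* ranged from 730 to 1357, *Cd79b* from 163 to 589 and *Ptprc* from 3802 to 11845. *Pax5*, *Rag1*, *Il7r*, *Bst1* and *Vpreb2* had 0 reads in all 6 mRNA libraries.

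In every one of the 52 genes, the 3 R98S values lay below the 3 WT values, a pattern found in 11.6% of the 11344 genes tested for mRNA. All 52 were also among the genes called lower by limma (Benjamini-Hochberg adjusted p under 0.1), which made up 3.91% of the genes tested. The rule used this contrast, so both counts only describe the choice. The median log2 fold change of mRNA was -4.69. No R98S clone kept more than 25% of the WT mean for any of these genes.

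**Figure D1:**
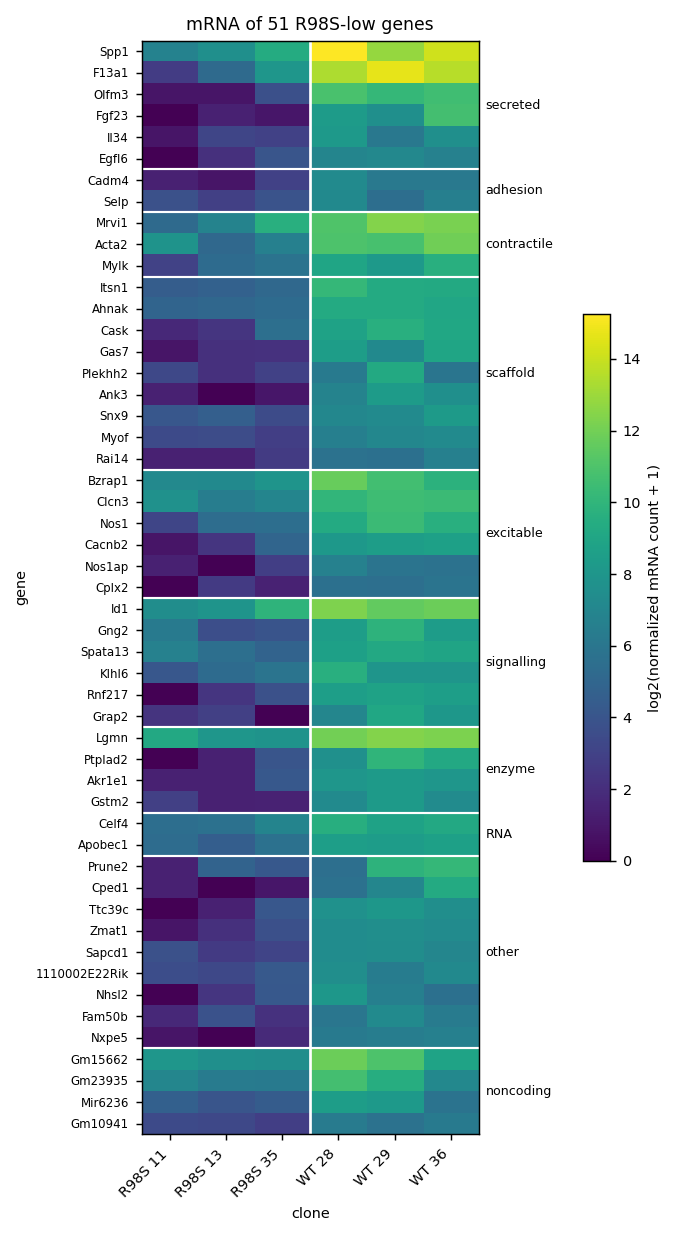
mRNA of 51 R98S-low genes in the 6 clones, as log2(normalized count + 1) in color. Rows are genes grouped by role and ordered within a role by WT mean, columns are clones, and the white vertical line separates genotypes; *Spp1* and *F13a1* are the brightest rows in WT.

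The reduction did not leave the same amount in each R98S clone. The median remaining mRNA was 1.91% of the WT mean in clone 11, 2.86% in clone 13 and 5.35% in clone 35. Clone 35 held the highest of the R98S values for 30 of 52 genes (57.7%, against 38.5% of the 9716 genes with the same WT minimum), and clone 11 the lowest for 28 (53.8%, against 28.2%). For 12 genes at least 1 R98S library had 0 reads. These zeros fell in clone 11 for 7 genes, in clone 13 for 4 and in clone 35 for 1.

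**Figure D2:**
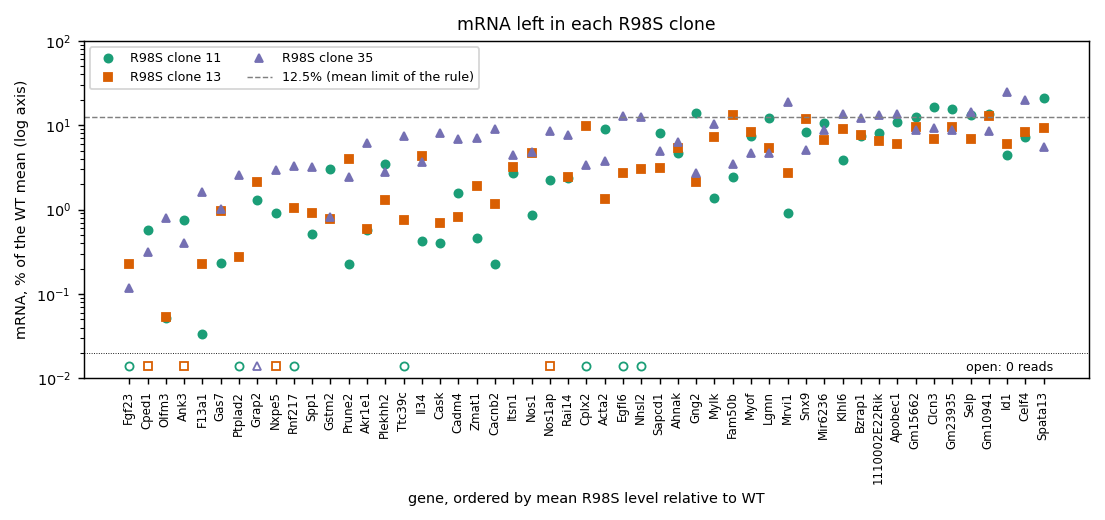
mRNA left in each R98S clone as a percentage of the mean of the WT clones (log axis), for 51 R98S-low genes ordered by the mean remaining level. Open symbols below the dotted line mark 0 reads; the triangles of clone 35 are the highest symbols for most genes, and the open symbols are mostly circles of clone 11.

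Secreted proteins had the lowest remaining mRNA of the role groups, with a median of 1.07% of WT over 6 genes. *F13a1* (chromosome 13, 36867178 to 37050244, minus strand, mm10) encodes the A subunit of coagulation factor XIII, the transglutaminase that cross-links fibrin. Its mRNA was 10511, 25840 and 12631 normalized counts in WT clones 28, 29 and 36, and 5.56, 36.9 and 260.5 in R98S clones 11, 13 and 35. The R98S mean was 162-fold lower, and the highest R98S clone still lay far below the lowest WT clone. *F13a1* RPF were 10132, 11706 and 5015 in the WT clones and 3.19, 16.8 and 102 in the R98S clones, in the same R98S order as the mRNA.

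*Spp1* (chromosome 5, 104435118 to 104441050, plus strand), which encodes the secreted phosphoprotein osteopontin, had 38952, 7420 and 17821 normalized mRNA counts in WT clones 28, 29 and 36. R98S clones 11, 13 and 35 had 109, 195 and 675, a mean 65.6-fold lower. WT clones themselves differed 5.25-fold, with clone 28 the highest. *Spp1* RPF followed with 42849, 6762 and 14422 in WT and 89.9, 119.9 and 512 in R98S clones, again highest in WT clone 28 and R98S clone 35.

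*Olfm3*, a secreted protein with an olfactomedin domain, had 1866, 1131 and 1546 normalized mRNA counts in WT and 0.794, 0.819 and 12.04 in R98S clones, equal to 1, 1 and 14 reads. *Fgf23* (chromosome 6, 127072902 to 127081408, plus strand), the hormone that lowers phosphate reabsorption in the kidney, had 333, 189 and 1675 in WT clones and 0, 1.64 and 0.860 in R98S clones. Only 3 *Fgf23* reads were found over all R98S libraries, a read rate of 0.0946% of WT (exact 95% interval 0.0195 to 0.277%, counting error only). *Il34*, a ligand of the CSF1 receptor, kept 2.82%, and *Egfl6*, an EGF-repeat matrix protein, kept 5.19% of the WT mean.

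The starts of these genes were poorer in CpG, by their median, than those of other genes expressed in the WT clones, a difference that was not tested. Windows from 250 bases before to 50 after the start annotated by GENCODE were read for 51 of the 52 genes. They include those of *Gm23935* and *Mir6236*, which are annotated as miRNAs. A gene can have other starts, and which start was used in these cells was not tested. Their median CpG observed/expected ratio was 0.415, against 0.761 for 9653 genes with the same WT minimum, and 32 of 51 (62.7%) lay under 0.6, against 29.2%. Median GC content was 53.3% against 59.7%. Promoters of *F13a1*, *Spp1* and *Fgf23* are printed to show such CpG-poor starts, and that of *Clcn3* to show that the R98S-low genes also included CpG-rich ones (RefSeq, GRCm38.p6, 5′ to 3′ on the strand of the gene, CG dinucleotides in capitals):
F13a1: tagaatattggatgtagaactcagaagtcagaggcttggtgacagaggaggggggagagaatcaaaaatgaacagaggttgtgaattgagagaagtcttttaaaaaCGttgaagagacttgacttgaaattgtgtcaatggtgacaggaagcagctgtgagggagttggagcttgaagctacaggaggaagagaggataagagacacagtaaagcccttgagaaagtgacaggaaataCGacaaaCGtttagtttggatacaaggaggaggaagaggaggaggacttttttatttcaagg
Spp1: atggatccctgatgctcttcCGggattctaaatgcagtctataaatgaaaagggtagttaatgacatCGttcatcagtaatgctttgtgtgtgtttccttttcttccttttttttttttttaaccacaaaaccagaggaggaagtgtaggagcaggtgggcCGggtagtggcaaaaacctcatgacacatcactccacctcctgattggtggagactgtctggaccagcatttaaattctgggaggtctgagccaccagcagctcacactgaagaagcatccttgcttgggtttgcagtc
Fgf23: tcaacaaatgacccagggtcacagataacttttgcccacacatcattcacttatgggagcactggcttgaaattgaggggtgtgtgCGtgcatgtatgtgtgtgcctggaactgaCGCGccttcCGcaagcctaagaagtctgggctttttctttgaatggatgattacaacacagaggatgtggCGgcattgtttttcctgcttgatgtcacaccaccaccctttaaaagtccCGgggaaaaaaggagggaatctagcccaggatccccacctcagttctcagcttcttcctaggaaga
Clcn3: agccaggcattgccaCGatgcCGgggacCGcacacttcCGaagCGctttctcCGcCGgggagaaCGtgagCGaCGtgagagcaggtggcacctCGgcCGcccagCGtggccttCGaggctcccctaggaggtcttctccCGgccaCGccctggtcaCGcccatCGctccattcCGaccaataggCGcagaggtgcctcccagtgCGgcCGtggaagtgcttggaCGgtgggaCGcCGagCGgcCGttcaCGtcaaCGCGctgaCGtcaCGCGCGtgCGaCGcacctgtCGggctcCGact
They cover chr13:37050195-37050494 (minus strand), chr5:104434861-104435160 (plus), chr6:127072652-127072951 (plus) and chr8:60983262-60983561 (minus). They hold 3, 3, 6 and 38 CG dinucleotides, and their observed/expected ratios are 0.306, 0.195, 0.333 and 1.08.

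**Figure D3:**
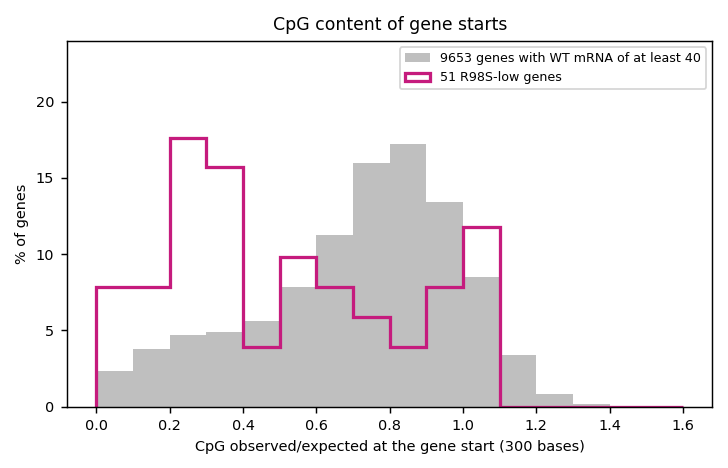
CpG observed/expected ratio in 300 bases at the gene start, as the share of genes per bin of 0.1: grey, 9653 genes with WT mRNA of at least 40; outline, 51 R98S-low genes. The outline is highest between 0.2 and 0.4, whereas the grey bars are highest between 0.8 and 0.9.

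Short motifs were searched on both strands of the same windows. CCGGAA, the core of ETS factor sites, occurred in 8 of 51 windows (15.7%) against 29.9% of all, and the E-box CACGTG in 1 (1.96%) against 10.5%; both contain a CG dinucleotide. TATAA was found in 11 (21.6%) against 13.9%, GATAA in 11 (21.6%) against 17.1%, and TGTGGT, as bound by RUNX factors, in 10 (19.6%) against 13.0%. CCAAT occurred in 41.2% against 39.7%, TTCNNNGAA in 5.88% against 7.20%, TGANTCA in 3.92% against 4.46% and TGACGTCA in 1.96% against 3.53%. Each share of the R98S-low genes rests on few windows, and these are matches of letters, not sites.

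Adhesion molecules included *Selp* and *Cadm4*, which are not in the RPF table. *Selp*, which encodes P-selectin of platelets and endothelium, had 148, 43.7 and 94.8 in WT and kept 11.5% of that mean. Per kilobase of exon its WT level was 21.6 ± 11.8 normalized counts (SD, n = 3). *Cadm4*, an immunoglobulin-type cell adhesion molecule, kept 3.10%. In the whole list of cell-cell adhesion molecules and cadherins, 6 of the 20 tested were called lower for mRNA, against 3.91% of all genes, and 3 of the 6 are R98S-low genes that the rule itself chose, *Selp* and *Cadm4* among them (median log2 fold change of the list -0.23, against 0.00 for the 9716 genes).

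Of the 52 genes, 51 could be placed in the genome, and 8 of them lay within 5 Mb of another. The share over all genes was not computed for this distance, so nothing was read from this count. The 51 genes were spread over 20 chromosomes, with at most 4 on any of them (X, 13, 16 and 19). Chromosome-wide medians of the log2 ratio to WT ranged from -0.45 to 0.31 over the R98S clones, small beside the changes of these genes.

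A larger share of genes next to R98S-low genes than of other genes was lower in R98S clones. Among 118 non-overlapping neighbours within 100 kb that met the WT minimum, the median log2 ratio of R98S to WT means was -0.14, against -0.01 for 9618 placed genes. The R98S mean was at most 50% of WT for 11 neighbours (9.32%, against 2.89%), at most 25% of WT for 5 (4.24%, against 0.447%), and at least double for 0 (0%, against 1.62%). These shares were not tested, and neighbours of one gene are not independent of each other.

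*Lyve1*, the hyaluronan receptor of lymphatic vessels, lies 5.03 kb from *Mrvi1* and kept 13.4% of its WT mean. *Dync2li1*, next to *Plekhh2*, kept 18.9%, *Stag3*, near *Nxpe5*, 20.6%, *Msh5*, which lies 0.589 kb from *Sapcd1*, 22.9%, and *Fam3c*, near *Cped1*, 24.9%. On one side of *Cadm4*, *Plaur* and *Kcnn4* kept 33.8% and 35.3%, and *Bcl2l1*, 43.3 kb from *Id1*, kept 32.3%. *Gpr34* lies within *Cask* on the opposite strand and kept 22.2%. Where genes overlap or abut, reads of the neighbour may be counted for either gene, which was not tested.

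Contractile proteins of smooth muscle formed a group of 3 genes that were all measured in both assays. *Acta2* (chromosome 19, 34241090 to 34255590, minus strand), smooth muscle actin, had 2049, 1830 and 3915 normalized mRNA counts in WT and 231, 34.4 and 98.004 in R98S clones 11, 13 and 35. Here clone 11 and not clone 35 kept the most. *Mrvi1*, a partner of the inositol trisphosphate receptor in smooth muscle, had 2108, 5515 and 4667 in WT and 37.3, 111 and 778 in R98S clones, so that its remaining level spanned more than an order of magnitude between R98S clones.

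*Mylk*, the kinase that phosphorylates myosin light chain, was 15.9-fold lower in mRNA and 30.6-fold lower in RPF. *Acta2* RPF were 23.97-fold lower, from 3029, 1828 and 3626 in WT to 228, 50.3 and 75.6, and *Mrvi1* RPF 12.4-fold lower. In the list of actin binding and cell shape proteins, which holds *Mylk*, 8 of 47 tested genes were called lower and 4 higher for mRNA (median log2 fold change -0.07). Of all genes tested, 3.91% were called lower. Markers of fibroblasts and stroma other than *Acta2* were at or near 0: *Dcn*, *Lum*, *Pdgfrb*, *Fap* and *Thy1* had 0 reads in all mRNA libraries, and the 10 genes without *Acta2* summed to at most 2.35 normalized counts in a WT clone and at most 14.3 in an R98S clone.

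The scaffold and membrane traffic group had 9 genes, with 0.385 to 8.44% of WT remaining. *Itsn1*, an endocytic scaffold, had 1120, 638 and 619.9 normalized mRNA counts in WT and 21.4, 25.4 and 35.2 in R98S clones. *Ahnak*, a very large membrane-associated scaffold, was among the most even: 639, 651 and 529 in WT and 28.6, 32.8 and 38.7 in R98S clones. *Cask*, a membrane-associated guanylate kinase of cell junctions, was uneven, with 2.38 and 4.09 in R98S clones 11 and 13 but 47.3 in clone 35, against 435 to 783 in WT.

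*Ank3*, ankyrin-G, which links membrane proteins to spectrin, had 110.1, 329.9 and 195 normalized mRNA counts in WT. Over the R98S libraries it had 3 reads, a rate of 0.341% of WT (exact 95% interval 0.0702 to 1.00%, counting error only). *Gas7* kept 0.739%, *Plekhh2* 2.52%, *Rai14* 4.15%, *Myof*, a ferlin of membrane fusion and repair, 6.78%, and *Snx9*, a sorting nexin of endocytosis, 8.44%. *Plekhh2* was also one of the most uneven genes in WT, with 613 normalized counts in clone 29 against 77.9 and 59.6 in clones 28 and 36.

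Proteins best known from neurons and other excitable cells made up 6 genes. *Nos1*, neuronal nitric oxide synthase, had 634, 1346 and 770.3 normalized mRNA counts in WT and 7.94, 43.4 and 43.8 in R98S clones. Its adaptor *Nos1ap* was low in WT (102, 58.6 and 53.3) and had 1.59, 0 and 6.02 in R98S clones. *Bzrap1* (now *Tspoap1*), a RIM-binding protein, had 3314, 1594 and 885 in WT and 145, 148 and 232 in R98S clones.

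*Clcn3*, a chloride/proton exchanger of endosomes and the gene with the CpG-rich promoter shown above, had 1028, 1469 and 1333 normalized mRNA counts in WT and 208, 88.4 and 119 in R98S clones. *Cacnb2*, a calcium channel subunit, kept 3.43% and *Cplx2*, complexin 2, which acts in vesicle release, 4.39% of WT. *Cplx2* lay near the WT minimum of the rule, with 46.2 to 56.4 normalized counts in WT.

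Signalling proteins included *Id1* (chromosome 2, 152736251 to 152737410, plus strand), an inhibitor of basic helix-loop-helix factors and a target of BMP signals. *Id1* had 5137, 3108 and 3575 normalized mRNA counts in WT and 175, 235 and 981 in R98S clones, and its RPF were 2798, 1791 and 2236 in WT and 81.4, 158 and 593 in R98S clones. It stood just inside the rule, with 11.8% of the WT mean remaining. In the TGF-beta and BMP list, 3 of 24 tested genes were called lower and 1 higher for mRNA, with a median log2 fold change of 0.01. Of all genes tested, 3.91% were called lower.

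*Grap2*, an adaptor of T-cell receptor signals, had 126, 532 and 263 normalized mRNA counts in WT and 3.97, 6.55 and 0 in R98S clones, the only gene whose zero fell in clone 35. *Klhl6*, a protein of B-cell receptor signalling, kept 8.79%, *Gng2*, a G protein gamma subunit, 6.22%, *Spata13*, a guanine nucleotide exchange factor, 11.9% and *Rnf217*, a RING finger protein, 1.43% of the WT mean. Among the G protein signalling list, which holds *Gng2*, 5 of 37 tested genes were called lower and 1 higher for mRNA. Of all genes tested, 3.91% were called lower.

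Among enzymes, *Lgmn* (chromosome 12, 102394084 to 102439813, minus strand), the lysosomal protease legumain, had 4036, 5451 and 4792 normalized mRNA counts in WT and 582, 254 and 223 in R98S clones. Its RPF were 4345, 5301 and 3984 in WT and 483, 205 and 166 in R98S clones, so that clone 11 was the highest R98S clone in both assays. *Ptplad2* (now *Hacd4*), a dehydratase of fatty acid elongation, kept 0.943%, *Gstm2*, a glutathione S-transferase, 1.54% and *Akr1e1*, an aldo-keto reductase, 2.44%. The RNA-acting proteins *Apobec1*, a cytidine deaminase that edits mRNA, and *Celf4*, an RNA-binding protein, kept 10.2% and 11.8%.

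Of the 9 genes with other or less known roles, *Cped1* had 51.02, 129 and 641 normalized mRNA counts in WT. Over the R98S libraries it had 3 reads, a rate of 0.237% of WT (exact 95% interval 0.0488 to 0.694%, counting error only). *Prune2* was the most uneven in WT, with 45.7 in clone 28 against 929.5 and 1151 in clones 29 and 36, and the value of WT clone 28 lay less than 2-fold above the 27.8 of R98S clone 13. *Nxpe5*, *Ttc39c*, *Zmat1*, *Nhsl2*, *Sapcd1*, *Fam50b* and *1110002E22Rik* kept 1.29 to 9.18%.

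Of 4 noncoding loci, 3 shared one order of the WT clones. *Gm15662* had 3585, 2002 and 463 normalized mRNA counts in WT clones 28, 29 and 36, *Gm23935* 1622, 723 and 140.3, and *Mir6236* 365, 285 and 54.9, each in the order 28, 29, 36. *Lars2*, the mitochondrial leucyl-tRNA synthetase, which is not an R98S-low gene, had the same order, with 41164, 18423 and 5142 in WT and 2784 to 3706 in R98S clones. Its RPF did not share that order and ranged from 351 to 552 in WT and from 426 to 511 in R98S clones. R98S clones 11, 13 and 35 had 254, 193 and 179 normalized mRNA counts of *Gm15662* and 128, 79.4 and 73.1 of *Gm23935*. For *Mir6236* they had 24.6, 15.6 and 20.6. WT clone 36 thus lay only 1.82-fold, 1.10-fold and 2.23-fold above the highest R98S clone for *Gm15662*, *Gm23935* and *Mir6236*.

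Relative to *Lars2* mRNA, *Gm15662* stayed between 6.27 and 10.9%, *Gm23935* between 2.56 and 3.94% and *Mir6236* between 0.559 and 1.55% over the 6 clones. *Gm23935* is annotated as a miRNA of 57 bases (chr16:11144125-11144181, plus strand, GENCODE, mm10), inside *Zc3h7a* on the opposite strand. It occurs in 3 exact copies, on chromosomes 16, 4 and 9, so a read within these bases matches all 3. The study kept alignments with a mapping quality of at least 10, and how the counted reads met this was not tested. The sequence of the locus is:
Gm23935: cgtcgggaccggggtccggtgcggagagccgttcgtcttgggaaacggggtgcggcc
*Mir6236*, 123 bases on chromosome 9, occurs once. Whether reads of another abundant RNA reached these loci was not tested. The fourth, *Gm10941*, kept 11.6% and shares its start region with *Pofut2* on the opposite strand. Without the 3 loci, 49 genes remained and the median log2 fold change of mRNA was -4.72.

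The values of the R98S-low genes differed more between WT clones than those of other genes. The rule used the same WT values, and 1 high WT clone raises the WT mean that it compares. The choice itself can therefore favor uneven genes, and its part in this difference was not tested. The ratio of the highest to the lowest WT clone had a median of 2.13, against 1.43 for the 9716 genes, and exceeded 2 for 28 of 52 genes (53.8%, against 13.3%) and 5 for 10 (19.2%, against 0.463%). The highest WT clone was 28 for 17 genes, 29 for 21 and 36 for 14, so that no WT clone stood apart for all of them. Their WT counts were also lower, with a median of 361 against 849 normalized counts (not per length).

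Levels were compared between genes per kilobase of exon. *Spp1* was the most abundant protein-coding R98S-low gene in WT, with 12984 ± 9750 normalized mRNA counts per kilobase (SD, n = 3), followed by *Id1* with 3397 ± 916, *F13a1* with 2423 ± 1233, *Lgmn* with 2049 ± 305 and *Acta2* with 1183 ± 522. In this order, mean ± SD overlapped between neighbours from *Spp1* to *Lgmn*, but not between *Id1* and *Lgmn* or between *Lgmn* and *Acta2*. The lowest were *Ank3* with 6.08 ± 3.18, *Rai14* with 7.95 ± 3.31 and *Nhsl2* with 8.05 ± 6.75.

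RPF could be followed for 24 of the 52 genes (46.2%), against 95.7% of the 9716 genes. The RPF table lists only genes with at least 1 read in each of the 6 libraries, so a gene can be missing because 1 R98S library had none. The 28 genes not listed had a median WT mRNA of 216 normalized counts, against 658 for those listed. They include all 4 noncoding loci, and RPF were counted over coding sequence only. The highest of the 28, *Gm15662* with 2017, is 1 of these loci. The 24 genes are therefore those that kept some footprints in every R98S clone, and they do not stand for all 52.

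For all 24, the 3 RPF values of R98S lay below those of WT, as in 12.8% of the 9580 genes tested for RPF, and all 24 were called lower by limma, as were 4.62% of the genes tested. RPF share the clones and the contrast of the rule, so nothing was read from these counts. The median log2 fold change of these 24 genes was -4.07 for RPF and -4.19 for mRNA. For 11 of them an R98S RPF library held 3 reads or fewer, which leaves the RPF fold change imprecise.

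**Figure D4:**
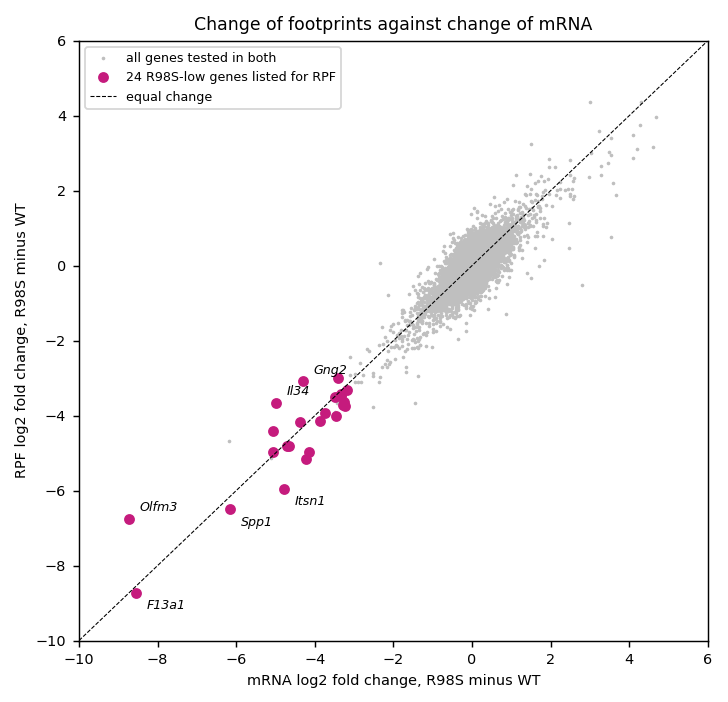
Log2 fold change (R98S minus WT, on log2(normalized count + 1)) of RPF against that of mRNA: grey, all genes tested in both assays; colored, the 24 R98S-low genes listed for RPF; dashed, equal change. *F13a1* and *Spp1* lie near the dashed line, and *Olfm3*, *Il34* and *Gng2* lie above it.

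The RPF change was less negative than the mRNA change for 7 of the 24 genes and more negative for the others. *Olfm3* had the widest gap, with a log2 fold change of -8.73 for mRNA and -6.75 for RPF, and its R98S RPF were 1.06, 3.35 and 3.36 normalized counts, close to the worth of single reads. *Il34* differed by 1.33 and *Gng2* by 1.23 in the same direction, also with few R98S footprints. On the other side, *Itsn1* had -4.78 for mRNA and -5.95 for RPF, and *Mylk* -4.23 and -5.15.

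Clone 35 was the highest R98S clone in RPF for 15 of the 24 genes, and for 13 it was highest in both assays. The share over all genes was not computed for RPF, so nothing was read from these counts. The RPF library of clone 35 was the shallowest, with 3477723 reads, and 1 read in it equals 1.68 normalized counts. Some of these ranks rest on few reads: *Plekhh2* had 2, 2 and 1 RPF reads in R98S clones 11, 13 and 35. Translation efficiency (TE, the log2 ratio of RPF to mRNA within a clone) could be tested for 4 R98S-low genes, those that reached 10 normalized counts in each of the 12 libraries. Over all 9043 genes tested, limma called 2 (0.0221%). The mRNA values that chose the R98S-low genes enter TE, so no test of it is given for them.

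In the WT clones alone, where the genes were expressed, footprints per mRNA can be described apart from the R98S values. Over 9296 genes with the same WT minimum, the 24 R98S-low genes had a median percentile of 49.5, with 6 in the lowest 25% and 9 in the highest 25%. *Acta2* (98.3), *Ahnak* (97.6), *Lgmn* (96.8) and *Spp1* (96.5) had high percentiles, and *Bzrap1* (3.08), *Gng2* (5.27) and *Clcn3* (8.57) low ones. mRNA reads were counted over exons and RPF over coding sequence, so the ratio also depends on how much of a transcript is coding.

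Of the 4390 exon bases of *Gng2* 213 are coding, and *Clcn3* has 2677 coding bases of 17071, whereas *Ahnak* has 17156 of 19938. How far this sets their percentiles was not tested. For *Clcn3* the log2 ratio was -3.39, -3.25 and -3.36 in WT clones 28, 29 and 36, and for *Klhl6* -1.82, -1.88 and -1.88. *Prune2* had the widest spread, with 0.75, -1.86 and -2.99, and *Bzrap1* the next, with -5.22, -3.84 and -3.15. *F13a1* had -0.05 in clone 28 against -1.14 and -1.33 in the other two. The mRNA library of clone 28 was the shallowest, and its part in these values was not tested.

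**Figure D5:**
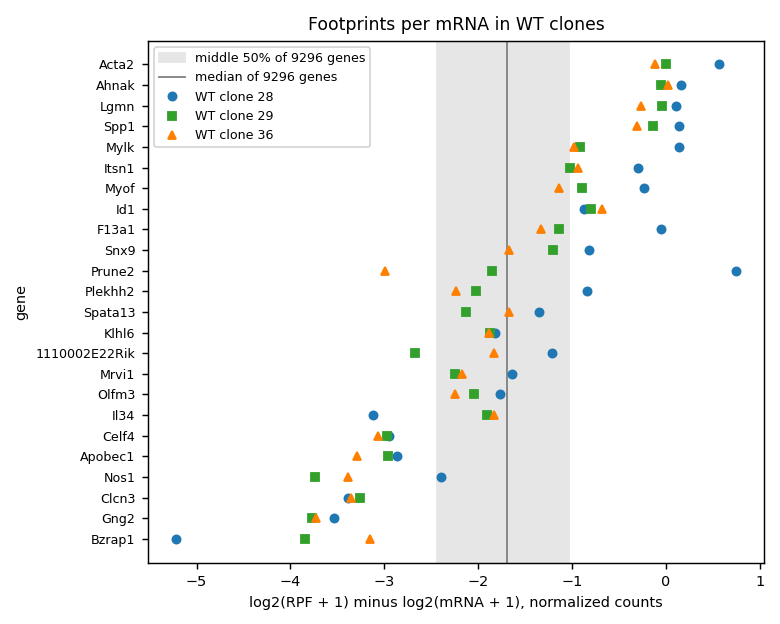
Log2 ratio of RPF to mRNA (each as normalized count + 1) in the 3 WT clones for the 24 R98S-low genes listed for RPF; the band holds the middle 50% of 9296 genes and the line is their median. The zero has no absolute meaning, because the assays were normalized separately; *Prune2* shows the widest spread between clones.

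Only 10 of the 52 genes belonged to one of the gene lists used. Over all 11344 genes tested for mRNA, 443 (3.91%) were called lower and 344 higher, and in each list the R98S-low genes count among the lower ones because the rule chose them on this contrast. Of the monocyte and macrophage markers, which include *F13a1*, 4 of 9 tested were called lower for mRNA. Besides *F13a1* these were *Emr1*, *Fcgr1* and *Cd163*, of which *Cd163* met the level and ratio of the rule and was left out by its symbol. *Fcgr1* had 72.5, 49.5 and 29.8 normalized counts in WT and 0.794, 1.64 and 4.30 in R98S clones, and *Cd163* 48.3, 201 and 115 in WT and 30.2, 3.28 and 4.30 in R98S clones. *Lyz2* had 0, 24.7 and 47.0 in WT and 0, 0 and 1.72 in R98S clones and was not called. *Csf1r*, *Ly6c1*, *Ly6c2* and *Cx3cr1* had at most 3.30 normalized counts in any clone. Without *F13a1*, the list summed to 9580 to 11013 in WT and 5142 to 6390 in R98S clones, mostly *Emr1* and *Ccr2*. *Emr1*, the F4/80 antigen, had 4777 to 6583 in WT and 418 to 1046 in R98S clones, while *Ccr2* had 2560 to 4436 and 4091 to 5788. The part of other cell states in these values was not tested.

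Matrix and matricellular proteins, with *Olfm3* and *Spp1*, had 4 of 16 tested called lower and 1 higher for mRNA. For the megakaryocyte and platelet list, 1 of 7 was called lower, and that gene is *Selp* itself. In the eicosanoid and granule enzyme list, which also holds *F13a1*, 5 of 23 were lower and 3 higher. Lists with no R98S-low gene included haematopoietic transcription factors (6 of 41 lower, 2 higher) and imprinted genes (2 of 17 lower, 1 higher). Over all 11344 genes tested for mRNA, 3.91% were called lower and 344 genes higher, and no list was tested against these shares.

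The rule is a cut through a continuous range. Just inside were *Selp* (11.5% of WT), *Gm10941* (11.6%), *Id1* (11.8%), *Celf4* (11.8%) and *Spata13* (11.9%), and just outside *Emr1* (12.7%), *9430020K01Rik* (12.9%), *Lyve1* (13.4%), *Ccr1* (13.5%) and *Gm15657* (13.8%). On the side of the WT minimum, *Selp*, *Prune2* and *Cplx2* had lowest WT values of 43.7, 45.7 and 46.2, while *Acss1*, *Tmem27* and *Hemgn* met the ratio but had lowest WT values of 37.6, 37.6 and 38.8.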

How the data were processed

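Per the labels and the paper's methods, adapters were trimmed from the footprints, reads were mapped to mm10 with TopHat2 2.0.11, and exon reads (mRNA) or coding sequence reads away from the codons at both ends (RPF, 3 technical replicates merged) were counted. The strand setting of the counting was not given in the sources used here. The authors deposited 1 table per assay of signal values, which are counts divided by DESeq2 size factors. Whole reads were recovered for 100% of values (tolerance 1e-06). The members, gene lists and roles were chosen with earlier results of these data known.

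Fold changes were tested across all genes with limma 3.58.1 (R 4.3.3, trend) on log2(value + 1) for genes with a mean of at least 10, with Benjamini-Hochberg adjusted p under 0.1. TE was the ratio within a clone, since both libraries of a clone carry its number, and their deviations from the genotype means correlated (mean r = 0.519, from 0.218 to 0.681). edgeR 4.0.16 and DESeq2 1.42.0 on recovered reads, other pseudocounts and filters, and leaving out each clone were alternatives. P-values set the genotype difference against the spread between these clones (n = 3 per genotype). Genes were placed with GENCODE vM21, and *Gm15662* could not be placed. The script was tested on simulated data. Genes were named by WT level, remaining share, RPF level, position, list membership and closeness to the thresholds; the neighbours, *Lars2* and the remaining R98S-low genes were named after their values were seen. One member, a gene list and some values are not reported here and are left out of the plots by gene. The study's Babel test for TE was not run.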

Additional observations from a re-analysis of the deposited data

How the results depend on the processing

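The rule gave 90 genes with a ratio of 1/4 and 33 with 1/16, and 28 genes had their highest R98S value at or below one eighth of the lowest WT value. A WT minimum of 10 gave 74 genes and one of 100 gave 36, and scaling by TMM or by library totals gave the same 52 genes. Leaving out 1 clone gave 51 to 61 genes, 45 of the 52 remaining at the fewest, without WT clone 28. A pseudocount of 5 moved the median log2 fold change to -3.95 for mRNA and -3.38 for RPF, and leaving out 1 clone gave -5.14 to -4.30 and -4.21 to -4.00. With edgeR the medians were -4.50 and -4.19 and with DESeq2 -4.57 and -4.22 (both chosen after seeing the data). Of 671 alternative mRNA values of single genes 21 moved by more than the spread between clones, of 303 RPF values 16, and 0 changed direction.

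Over all genes, 443 were called lower and 344 higher for mRNA, and 443 and 300 for RPF. DESeq2 gave 705 and 578 for mRNA and 460 higher for RPF. Leaving out 1 clone gave 182 to 622 lower and 130 to 491 higher for mRNA, and 164 to 642 and 65 to 506 for RPF, the fewest without R98S clone 13 except mRNA higher, which was fewest without R98S clone 11. The DESeq2 counts given here moved by over 1.5 times. Among fits without 1 clone, so did those without R98S clones 11 and 13 and WT clone 36 for mRNA. For RPF they were these, WT clone 28 and, for higher genes, R98S clone 35. Members called lower ranged from 48 to 51 of 52 for mRNA and from 23 to 24 of 24 for RPF without 1 clone. With a mean of at least 50, 15 members were called for RPF, because fewer genes were tested. Within 5000 kb of another, 8 members were found. The median percentile of footprints per mRNA ranged from 43.0 to 56.7 without 1 WT clone. No paired analysis was possible between genotypes because R98S and WT clones share no numbers; for TE, the fit with no replicate block, which ignores the pairing of libraries by clone, called 3 genes lower against 2. Removing chromosome medians changed no count of calls by more than 1.5 times. RPF depth limits the genes near single reads in R98S clones.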
